A study of Mus musculus with 12 samples.

Results

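The response of control hepatocytes to carbon tetrachloride (CCl4) was compared across genes between 3 Alb-Cre libraries taken 48 h after CCl4 and 3 Alb-Cre libraries taken 48 h after oil. These are 6 of the 12 libraries of the series, and 17965 of the 35709 genes in the deposited table were tested, namely those with a normalized count of at least 1 in at least 3 of the 6. All mice were male C57BL/6J aged 8 to 10 weeks. Both groups carry Alb-Cre, a Cre recombinase transgene under the albumin promoter, which is active in hepatocytes, so any effect of the transgene is shared by oil and CCl4. The CCl4 group received 1 intraperitoneal dose of CCl4 in olive oil, 0.4 mg for each g of body weight, and the oil group received the vehicle alone. The other 6 libraries are Alb-R3, labelled as lacking the receptor gene Fgfr3 in hepatocytes, under the same treatments with 3 libraries each. Hepatocytes had been purified by Liberase perfusion, differential centrifugation and Percoll, so the libraries sample the cells that survived isolation. The labels number the libraries of a group, and the column headers give each library a number of its own. Neither says whether the libraries are separate animals. The p-values therefore measure the spread between these libraries, which may be technical.

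CCl4 is a classical liver toxicant. The cytochrome P450 enzyme CYP2E1, which is concentrated in the hepatocytes around the central vein, turns it into a reactive radical, so that pericentral hepatocytes die and the surviving hepatocytes leave quiescence and divide to restore the tissue. Entry into the cell cycle runs through cyclin D and the release of E2F factors, which drive the genes of DNA replication. Genes of mitosis are switched on later by the MuvB complex with B-Myb and FOXM1, often through a CHR element and CCAAT boxes near the start site.

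Totals of normalized counts were 35456038, 34699532 and 35466414 in the oil libraries and 29212717, 32049321 and 28838634 in the CCl4 libraries, without overlap. Shares of a library are taken of these totals, while fold changes use the normalized counts as deposited. A share therefore stands higher after CCl4, relative to oil, than the normalized counts do. The depth implied by the value of 1 read was between 28000000 and 35700000 estimated reads. In a principal component analysis of the 6 libraries, oil and CCl4 lay on opposite sides of the first axis (45.4% of variance), and oil replicate 3 lay apart from the other oil libraries on the second (20.8%). Mitochondrially encoded genes took 12.8% of oil replicate 3 and between 6.25% and 7.98% of the other 5. Hepatocyte identity was checked on 12 marker genes, which together took 8.73% to 11.4% of the oil libraries and 12.7% to 13.2% of the CCl4 libraries. Of this, Alb, the albumin gene, alone took 4.54% to 6.83% of the oil and 7.19% to 8.16% of the CCl4 libraries. By member, 7 of the 12 had a negative log2 fold change and 5 a positive one, with a median of -0.23. Alb was at 2422000, 2195000 and 1610000 normalized counts after oil and at 2384000, 2305000 and 2317000 after CCl4. Fgfr3, which the Alb-Cre mice keep, was at 734.9, 887.6 and 988.1 after oil and at 950.9, 705.7 and 753.0 after CCl4, and the groups overlapped.

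After CCl4, genes of DNA replication and cell division rose, and a smaller number of genes, liver function genes among them, fell. Hmmr, a spindle gene near 0 after oil, reached 867.2, 247.9 and 830.1 normalized counts. As a sum, the spindle list took 0.000506% to 0.000561% of the oil libraries and 0.0159% to 0.0458% of the CCl4 libraries. The replication list took 0.0169% to 0.0212% of the oil libraries and 0.0599% to 0.0897% of the CCl4 libraries. Its oil sum includes Mcm10, a member that fell, at 2681, 2564 and 1705 normalized counts. Slc1a2, a glutamate transporter gene, had the lowest log2 fold change of all genes tested, and the major urinary protein list had the lowest median of the lists. With limma and Benjamini-Hochberg adjustment over all 17965 genes, 929 genes (5.17%) passed an adjusted p of 0.05. Of these 702 (3.91%) were higher and 227 (1.26%) lower after CCl4, so that 75.6% of the calls were rises. At least 4-fold changes were called in 375 genes upward and 47 downward, on the log2(normalized count + 1) scale that is used for every fold change here and that understates the change of low genes. The oil mean was under 10 normalized counts for 227 of the 702 genes that rose. When the tested genes were divided into 4 equal classes of mean level, the class of highest level held more falls than rises, 118 against 72. Values of the 2 groups did not overlap for 2594 genes (14.4%) with CCl4 above oil and for 2064 genes (11.5%) with CCl4 below oil. The median log2 fold change of all genes was 0.02.

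The number of calls changed when 1 library was left out, a fit that also has fewer residual degrees of freedom. Leaving out 1 library at a time gave 458, 527 and 690 higher genes without oil replicates 1, 2 and 3, and 428, 421 and 433 without CCl4 replicates 1, 2 and 3. The corresponding lower genes were 87, 158 and 250, and 154, 97 and 127. On the deposited FPKM columns 90.8% of the calls were rises (1137 higher and 115 lower), and there the median of all genes lay at 0.18. Log2 fold changes moved up there in falling and rising genes alike. That of Tat was -0.791 against -1.022 on normalized counts, and that of Anapc5 was 0.733 against 0.503. The split of rises against falls thus differed with the scale used.

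**Figure D1:**
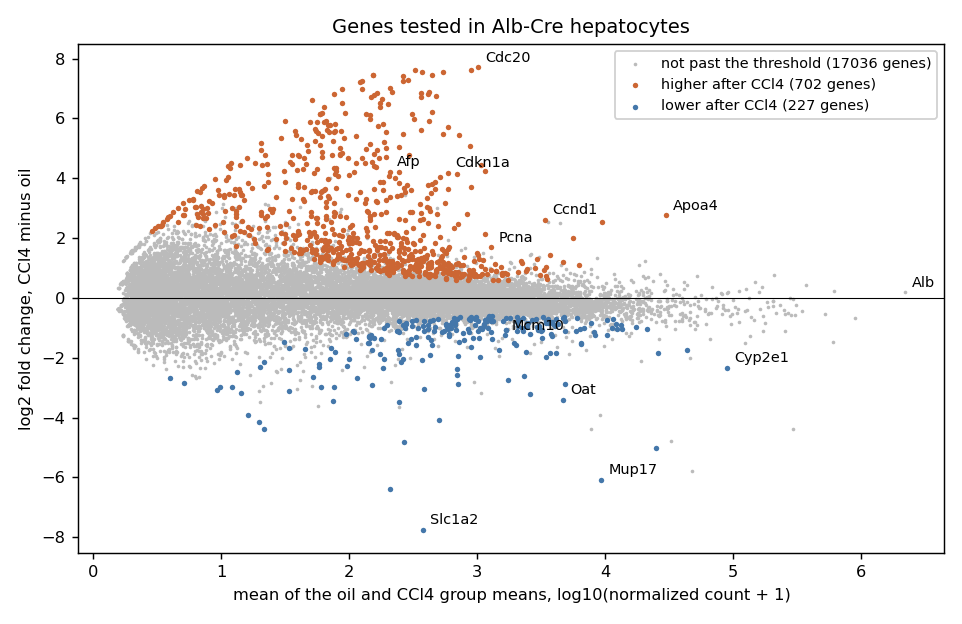
Log2 fold change of CCl4 against oil (vertical axis) by mean level on a log10 scale (horizontal axis) for the 17965 genes tested, with the 702 genes called higher in orange, the 227 called lower in blue and the others in grey. Most rises lie at low and middle levels, while Cyp2e1, Mup17 and Slc1a2 are among the falls.

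Replication genes were read first. These encode the proteins that license origins, unwind DNA and copy it. Of 36 tested members of the replication list, 32 rose and 1 fell, with a median log2 fold change of 2.40 against 0.02 over all genes. Counts of list members here and below are to be read against all genes tested, of which 3.91% rose and 1.26% fell. Cdc6, which loads the MCM helicase onto origins (chromosome 11, 98907801 to 98923940 on GRCm38), was listed at 0, 0 and 2.387 normalized counts after oil and at 150.7, 364.9 and 206.1 after CCl4. Every CCl4 library lay far above every oil library (log2 fold change 7.23 ± 0.57 (SE, n = 3 per group), limma adjusted p = 8.57e-05), and without oil replicate 3 the value was 7.82. Clspn, the gene of the fork protein claspin, went from 3.15, 0 and 5.967 to 106.9, 192.2 and 140.5 (5.55 ± 0.66, limma adjusted p = 0.000898). Leaving out oil replicate 2 or 3 moved its log2 fold change to 4.74 or 6.14. Pcna, the sliding clamp of the polymerases, was already at 652, 659.2 and 488.1 after oil and reached 1547, 2402 and 1931 (1.70 ± 0.20, limma adjusted p = 0.000885). The exception was Mcm10, an initiation factor gene, at 2681, 2564 and 1705 after oil and 899.3, 904.7 and 1095 after CCl4 (-1.24 ± 0.20, limma adjusted p = 0.00628). Its groups did not overlap, and its oil level exceeded that of Pcna per length as well, at 36.1 against 18.9 FPKM. Without the mean-variance trend its adjusted p was 0.0561. The table gives 1 value per gene, so which Mcm10 transcripts make up this level, the coding one included, was not tested.

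The promoters of 6 genes are shown because members of the replication and mitosis lists rose together. They are the genes of largest rise with a RefSeq promoter entry, 2 each from the replication, kinetochore and spindle lists, each from 150 bases before the start to 30 bases from it, on the gene's strand and on GRCm38.p6. The start is RefSeq's, and for Cdc6 the GENCODE span given above begins upstream of the printed stretch. Capitals mark an E2F motif (TTTCCCGC, TTTGGCGC or TTTCGCGC), the CHR letters TTTGAA or a CCAAT box, each searched on both strands, and none of these letter sets contains another.
Cdc6, chr11:98908001-98908180, + strand: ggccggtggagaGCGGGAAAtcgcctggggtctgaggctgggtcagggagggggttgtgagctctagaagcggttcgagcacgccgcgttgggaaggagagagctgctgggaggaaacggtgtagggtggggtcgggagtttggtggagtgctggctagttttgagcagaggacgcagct
Clspn, chr4:126556830-126557009, + strand: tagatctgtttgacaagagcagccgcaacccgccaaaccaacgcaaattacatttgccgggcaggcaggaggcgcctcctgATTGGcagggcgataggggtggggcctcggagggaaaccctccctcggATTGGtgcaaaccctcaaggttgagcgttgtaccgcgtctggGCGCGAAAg
Ttk, chr9:83834539-83834718, + strand: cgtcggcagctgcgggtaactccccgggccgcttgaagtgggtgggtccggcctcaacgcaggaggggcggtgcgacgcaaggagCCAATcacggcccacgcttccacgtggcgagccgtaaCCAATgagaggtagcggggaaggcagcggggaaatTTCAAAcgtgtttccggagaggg
Cenpe, chr3:135212413-135212592, + strand: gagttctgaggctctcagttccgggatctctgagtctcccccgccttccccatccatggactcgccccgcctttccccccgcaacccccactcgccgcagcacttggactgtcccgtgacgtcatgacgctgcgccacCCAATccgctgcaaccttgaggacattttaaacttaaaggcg
Hmmr, chr11:40733408-40733587, - strand: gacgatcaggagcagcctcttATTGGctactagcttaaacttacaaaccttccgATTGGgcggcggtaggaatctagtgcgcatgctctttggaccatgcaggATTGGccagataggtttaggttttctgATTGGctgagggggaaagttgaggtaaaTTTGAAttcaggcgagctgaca
Racgap1, chr15:99651627-99651806, - strand: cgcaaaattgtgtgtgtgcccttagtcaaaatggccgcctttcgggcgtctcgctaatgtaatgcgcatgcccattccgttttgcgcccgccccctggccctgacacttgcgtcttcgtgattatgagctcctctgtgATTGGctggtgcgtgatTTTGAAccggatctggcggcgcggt

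Both replication promoters held an E2F motif, while the CHR letters were found in those of Ttk, Hmmr and Racgap1 just after the start. Over the lists, windows of 300 bases (250 before the start and 50 after it) were counted. The CHR letters were in 22 of 25 windows of the spindle list (88.0%), in 10 of 23 of the kinetochore list (43.5%) and in 7 of 33 of the replication list (21.2%), against 17.9% of all 32851 windows in the table and 13.5% of the windows of tested genes. CHR and CCAAT stood together in 72.0% of spindle windows and in 7.0% of all windows. E2F motifs showed another order, at 42.4% of replication windows, 8.0% of spindle windows, 1.8% of all windows and 3.0% of the windows of tested genes. With the first T left out of the E2F letters, a form tried after those shares had been seen, the values were 66.7%, 5 of 25 windows, 8.1% and 12.5%. The motif letters were chosen with the windows in view, and a match is a description of the letters only.

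Of 16 genes of nucleotide supply 8 rose, none fell and 8 did not pass. Rrm2, the regulated subunit of ribonucleotide reductase, went from 96.59, 242.1 and 82.34 normalized counts to 1696, 1576 and 1614 (log2 fold change 3.70 ± 0.35, limma adjusted p = 0.000209), with no overlap. Genes of purine synthesis with high basal levels did not pass, such as Paics at 6041, 6975 and 4491 after oil and 5080, 4390 and 5358 after CCl4. The list's count was 4 without CCl4 replicate 2 and 5 without CCl4 replicate 3. Among 19 E2F, MuvB and Foxm1 regulators 5 rose and 14 did not pass. Foxm1, the mitotic transcription factor, went from 8.399, 6.805 and 17.9 to 591.1, 358 and 589.3 (5.49 ± 0.38, limma adjusted p = 4.56e-05). Rbl1, the gene of the pocket protein p107, rose (3.18 ± 0.27), while its relative Rbl2, known from quiescent cells, was at 920.7, 1020 and 615.8 after oil and 667, 458.7 and 705.7 after CCl4, with overlapping groups.

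Of 18 genes of cyclins, their kinases and CDC25 phosphatases 11 rose and none fell, with a median log2 fold change of 2.93. Ccnd1, the cyclin D1 gene that hepatocytes use to leave quiescence (chromosome 7, 144929931 to 144939925), went from 1120, 662.1 and 923.7 normalized counts to 2993, 6757 and 7758 (2.61 ± 0.34, limma adjusted p = 0.00158). Ccnd3 stayed among overlapping values, at 934.5, 795.7 and 853.3 and at 892.9, 1212 and 904.3. Ccna2, the cyclin of S and G2 phase, rose from 3.15, 5.833 and 8.354 to 1118, 410.6 and 978.3 (6.90 ± 0.44, limma adjusted p = 3.78e-05). Ccnb1, the cyclin of mitotic entry, rose from 6.299, 2.917 and 9.547 to 1299, 229.6 and 1285 (6.76 ± 0.65, limma adjusted p = 0.000234), and without CCl4 replicate 2 its log2 fold change was 7.59. In both of the latter genes CCl4 replicate 2 was the lowest CCl4 library, whereas for Ccnd1 it was not.

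Of 8 CDK inhibitor genes 4 rose and none fell. Cdkn1a, which encodes p21 and is a target of p53, went from 34.65, 84.6 and 66.88 normalized counts to 970.8, 1543 and 822.9 (4.18 ± 0.34, limma adjusted p = 0.000101). Cdkn1b, the gene of p27, gave overlapping values (480.8, 508.5 and 526.3 after oil, 653.4, 465.5 and 597.6 after CCl4). Of 24 p53 targets 5 rose (20.8%, against 3.91% of all genes) and none fell, and the list's median log2 fold change was 0.29. Gtse1 rose too, from 5.249, 14.58 and 23.87 to 390.8, 196.7 and 301.7, and it is itself a G2 and S phase gene. The abundant targets Ei24 and Perp did not pass, and Trp53 was at 622.7, 507.5 and 679 after oil and 861.4, 943.8 and 802.9 after CCl4 (0.53 ± 0.17, limma adjusted p = 0.111).

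The kinetochore and spindle lists had the highest medians. All 25 tested kinetochore and spindle checkpoint genes rose, with a median log2 fold change of 5.0, and 25 of 26 spindle, kinesin and cytokinesis genes rose, with a median of 5.76. Cdc20, the activator of the anaphase-promoting complex (chromosome 4, 118432901 to 118437352), had the largest rise that the naming rule takes, from 15.75, 8.75 and 2.387 normalized counts to 2614, 736.6 and 2658 (7.71 ± 0.62, limma adjusted p = 9.59e-05). Its log2 fold change was 8.33 without CCl4 replicate 2 and 7.08 without oil replicate 3. Hmmr, a spindle assembly gene, went from 5.373, 2.659 and 0 to 867.2, 247.9 and 830.1 (7.63 ± 0.70, limma adjusted p = 0.000188). Mki67, the gene of the proliferation antigen Ki-67, went from 16.8, 2.917 and 8.354 to 2157, 1088 and 2040 (7.6 ± 0.50, limma adjusted p = 3.78e-05). The checkpoint kinase gene Ttk went from 1.05, 0 and 2.41 to 299, 168.1 and 272.6, and Cenpe, the kinetochore motor gene, from 2.1, 0 and 3.58 to 402.5, 121.2 and 453.8. Without CCl4 replicate 2 the log2 fold change of Hmmr was 8.22 and that of Cenpe 7.47, and without oil replicate 3 and oil replicate 2 they were 6.87 and 6.23. In each of these genes the 3 oil libraries were near 0 and no oil library reached any CCl4 library.

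Of 17 condensation and cohesion genes 11 rose, among them Top2a, the decatenating topoisomerase, from 12.6, 1.945 and 3.58 normalized counts to 1038, 944.8 and 1234 (7.55 ± 0.49, limma adjusted p = 3.78e-05, and 8.18 without oil replicate 1). The abundant Smc1a and Ncaph2 did not pass. Of 22 homologous recombination and Fanconi repair genes 21 rose, with a median of 3.78. Of 16 genes of DNA methylation and chromatin upkeep 9 rose, and Uhrf1, which brings DNMT1 to newly copied DNA, went from 10.5, 1.944 and 2.387 to 665, 1212 and 768 (7.46 ± 0.50, limma adjusted p = 4.23e-05, and 8.08 without oil replicate 1). Of 14 genes of the anaphase-promoting complex and mitotic exit 4 rose. Cdc20 and Ube2c, an activator and a ubiquitin-conjugating enzyme, were the largest, while the core subunits Anapc5 and Anapc2 did not pass. Cdc20, Ccna2 and Kif20a overlap an annotated gene on the opposite strand, and the sources used here do not say whether the authors' counting used strand.

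**Figure D2:**
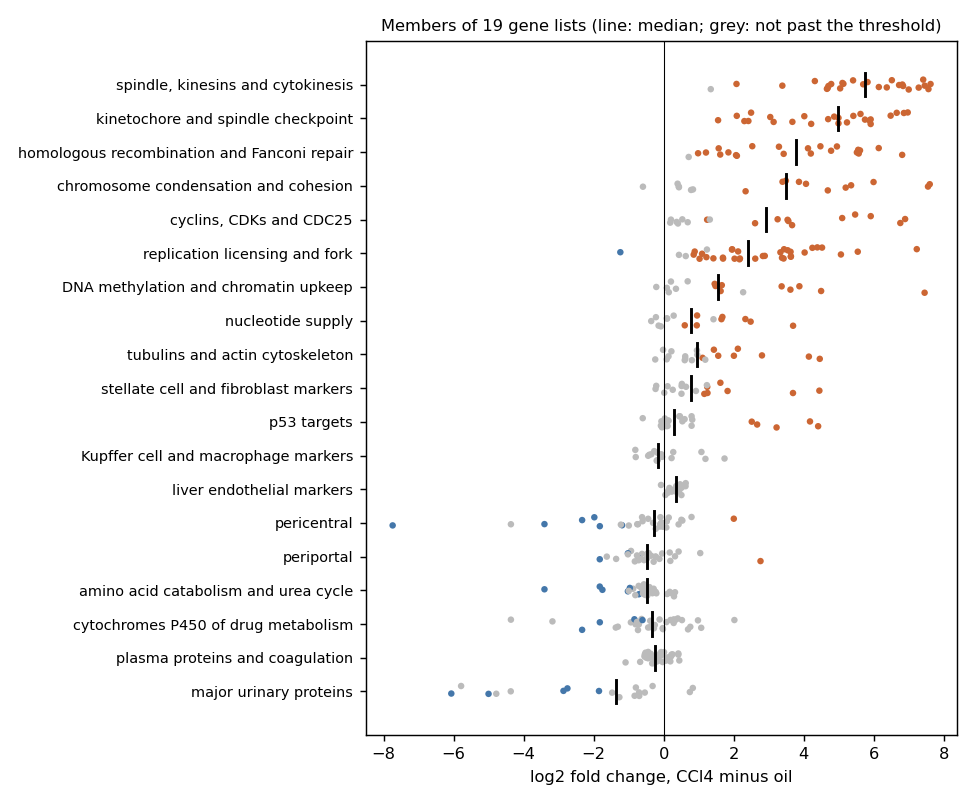
Log2 fold change of CCl4 against oil (horizontal axis) for each tested member of 19 gene lists (vertical axis), with a line at the list's median. Orange points are members called higher, blue points members called lower and grey points members not past the threshold. Medians run from 5.76 in the spindle list to -1.37 in the major urinary proteins.

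The 3 CCl4 libraries did not hold replication and mitosis genes in the same proportion. The replication list took 0.0599%, 0.0897% and 0.0733% of CCl4 replicates 1, 2 and 3, against 0.0169% to 0.0212% of the oil libraries. The spindle list took 0.0452%, 0.0159% and 0.0458%, against 0.000506% to 0.000561%. CCl4 replicate 2 was thus the highest in replication genes and the lowest in spindle genes, and still above every oil library in both. Member by member, it was the highest CCl4 library in 34 of 36 replication genes and the lowest in 25 of 26 spindle genes and 20 of 25 kinetochore genes. Over all genes tested it was the highest in 34.9% and the lowest in 36.8%. The summed recombination and repair list took 0.0112%, 0.0112% and 0.0113%, but CCl4 replicate 2 was the highest CCl4 library in 15 of its 22 members (68.2%). This difference between libraries was seen in the data and has no replicate.

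CCl4 replicate 2 also differed in liver genes. The acute phase list took 7.33% of it, against 2.21% and 2.29% of the other CCl4 libraries and 3.00% to 3.98% of the oil libraries, and it was the highest CCl4 library in 22 of 24 members. Hp, the haptoglobin gene, was at 109900, 427900 and 110300 normalized counts after CCl4 and at 220500, 127900 and 226300 after oil. The list of fatty acid synthesis and lipid droplets took 0.351% of this library, against 0.948% and 1.22%. Scd1, the stearoyl-CoA desaturase gene, was at 26740 there and at 161500 and 208000 in the other CCl4 libraries. Neither list gave a called rise, and 6 acute phase members were called lower without this library against 1 with it (Orm3, -3.47 ± 0.48, limma adjusted p = 0.00225). What sets this library apart was not tested.

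**Figure D3:**
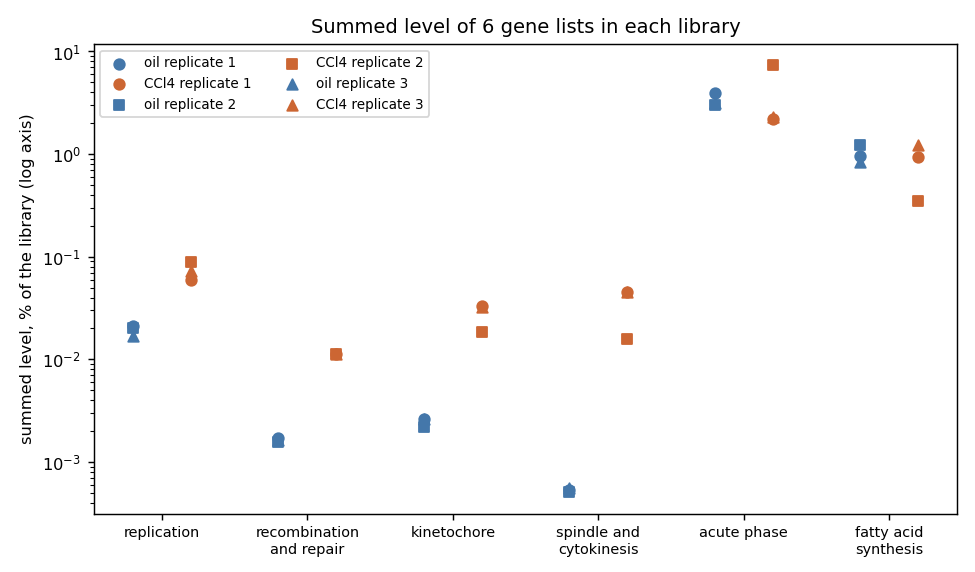
Summed level of 6 gene lists as a percentage of each library's normalized counts (vertical log axis), with oil libraries in blue, CCl4 libraries in orange and 1 marker shape per replicate number. CCl4 replicate 2 (square) is the highest CCl4 library in the replication and acute phase lists and the lowest in the kinetochore, spindle and fatty acid synthesis lists.

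Of 20 tubulin and actin genes 8 rose and none fell. Stmn1, the gene of the microtubule regulator stathmin, went from 88.19, 76.8 and 103.8 normalized counts to 2345, 1320 and 2499 (4.46 ± 0.26, limma adjusted p = 3.67e-05). Tuba1b was among the most abundant genes that rose, from 2433, 2510 and 1723 to 9340, 7232 and 10120 (2.01 ± 0.20, limma adjusted p = 0.00033). Actb gave 10210, 11420 and 15400 after oil and 13800, 29210 and 15580 after CCl4, with overlapping groups. Anxa2, an annexin gene of membrane repair and traffic, went from 91.34, 98.19 and 112.2 to 1578, 531.9 and 934.2 (3.19 ± 0.34, limma adjusted p = 0.000438).

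Of 21 fetal liver and progenitor genes 7 rose and none fell. Afp, the alpha-fetoprotein gene of fetal liver, went from 27.3, 19.44 and 13.13 normalized counts to 410.3, 515.8 and 247.7 (4.22 ± 0.36, limma adjusted p = 0.000111). Ly6d, a surface antigen gene, went from 5.249, 3.889 and 14.32 to 1087, 163.6 and 650.8 (5.98 ± 0.67, limma adjusted p = 0.000607). Without CCl4 replicate 2 its log2 fold change was 6.76. Cdh17, a cadherin gene, was listed at 0 in all oil libraries and at 58.34, 18.3 and 39.9 after CCl4. Spp1, the osteopontin gene, also counted among matrix and cholangiocyte genes, went from 45.14, 47.64 and 16.71 to 443.3, 398 and 195.3 (3.26 ± 0.44, limma adjusted p = 0.00213). The list's count was 4 without CCl4 replicate 3.

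Genes of early growth signals were read at the same time of 48 h. Of 18 immediate early and Myc genes 2 rose (11.1%, against 3.91% of all genes), and 5 were higher at an unadjusted p under 0.05 (27.8%, against 11.6% of all genes). None of 20 mitogen receptors and ligands passed in either direction with limma, where 1 was higher and 3 lower at an unadjusted p under 0.05. Myc was at 87.14, 42.78 and 126.5 normalized counts after oil and at 177.9, 258.5 and 356.6 after CCl4 (1.69 ± 0.40, limma adjusted p = 0.0416). It kept its call only without oil replicate 3, and the adjusted p reached 0.14 when another library was left out. Egfr, the epidermal growth factor receptor gene, was at 16260, 17640 and 6612 after oil and 5902, 15270 and 11310 after CCl4, and Met, the receptor gene of hepatocyte growth factor, at 1990, 2010 and 1437 and at 1527, 1601 and 1695. Both overlapped. Of 22 genes of the unfolded protein and ATF4 response 2 were called higher (9.1%, against 3.91% of all genes), with a list median log2 fold change of 0.59. At an unadjusted p under 0.05, 9 were higher (40.9%, against 11.6% of all genes) and 1 lower. Both called genes are of serine synthesis. Psat1 went from 33.6, 24.31 and 31.03 to 222.6, 241.3 and 420.6 (3.22 ± 0.30, limma adjusted p = 0.000214), and Phgdh from 3.15, 0 and 2.387 to 43.75, 147.5 and 39.9 (4.75 ± 0.69, limma adjusted p = 0.00326, and 4.11 without oil replicate 2).

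Of 30 pericentral genes 6 fell, against 1.26% of all genes, and 1 rose, with a median log2 fold change of -0.26. Slc1a2, the gene of a glutamate transporter of pericentral hepatocytes (chromosome 2, 102658659 to 102790784), went from 755.6, 841 and 658.1 normalized counts to 1.99, 2.288 and 3.338 (-7.74 ± 0.30, limma adjusted p = 5.44e-06). Oat, the ornithine aminotransferase gene, went from 9447, 11620 and 4769 to 557.1, 816.7 and 961.7 (-3.41 ± 0.32, limma adjusted p = 0.000218). Cyp2e1, the gene of the enzyme that activates CCl4, went from 154500, 152800 and 137000 to 34280, 15990 and 46370 (-2.33 ± 0.39, limma adjusted p = 0.008). In the fit to all 12 libraries of the series its adjusted p was 0.117. Glul, the glutamine synthetase gene of the innermost pericentral cells, went from 5796, 5755 and 4678 to 1365, 886.4 and 2091 (-1.98 ± 0.28, limma adjusted p = 0.00247). None of these groups overlapped. In a bulk library, fewer cells of a type and less RNA per cell cannot be told apart.

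Some other pericentral genes did not fall with them. Axin2, a Wnt target gene of this zone, was at 179.5, 178.9 and 186.2 normalized counts after oil and 221.7, 137.3 and 175.4 after CCl4 (-0.05 ± 0.23, limma adjusted p = 0.93). Cyp1a2, named after its values were seen, was at 22630, 26710 and 16350 after oil and 27070, 17110 and 20440 after CCl4. Slc1a4, a neutral amino acid transporter gene, was the member that rose, from 92.39, 116.7 and 88.31 to 437.5, 590.2 and 243.5 (2.0 ± 0.31, limma adjusted p = 0.00508). By member, 22 of the 30 pericentral genes had a negative log2 fold change and 8 a positive one. At an unadjusted p under 0.05, 11 were lower (36.7%, against 8.1% of all genes) and 4 higher (13.3%, against 11.6%). The list thus leaned down, with a steep fall in some members and overlapping groups in Axin2 and Cyp1a2.

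The periportal list had 3 falls (10.3%, against 1.26% of all genes) and 1 rise (3.4%, against 3.91%) among 29 genes. Its median log2 fold change was -0.47. At an unadjusted p under 0.05, 10 members were lower (34.5%, against 8.1% of all genes) and 2 higher (6.9%, against 11.6%). The list's count of falls ran from 1 (without oil replicate 1, oil replicate 2 or CCl4 replicate 1) to 5 (without oil replicate 3). Sds, the serine dehydratase gene, went from 5843, 5569 and 5609 normalized counts to 2176, 1896 and 991.6 (-1.83 ± 0.26, limma adjusted p = 0.00313). Apoa4, an apolipoprotein gene, was the rise, from 8337, 8154 and 4024 to 20440, 92100 and 45830 (2.77 ± 0.49, limma adjusted p = 0.0111), and CCl4 replicate 2 held the highest value. Without the mean-variance trend its adjusted p was 0.076. Whether pericentral and periportal lists differed was not tested. Of 33 genes of amino acid catabolism and the urea cycle 6 fell (18.2%, against 1.26% of all genes) and none rose. The count of falls was 3 without oil replicate 1 or without CCl4 replicate 3. Gnmt, the glycine methyltransferase gene, went from 62220, 62220 and 74630 to 27510, 14060 and 19620 (-1.75 ± 0.28, limma adjusted p = 0.00684). Cps1 and Ass1, the entry enzymes of the urea cycle, had overlapping groups.

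Of 34 drug-metabolizing P450 genes 4 fell (11.8%) and none rose, and of 30 phase II conjugation genes 3 fell and none rose, where 1.26% of all genes tested fell. At an unadjusted p under 0.05, 9 P450 genes (26.5%) and 11 phase II genes (36.7%) were lower, against 8.1% of all genes tested. Cyp2c37 went from 6095, 6039 and 6630 normalized counts to 1693, 1069 and 3033 (-1.82 ± 0.31, limma adjusted p = 0.00904), with adjusted p of 0.0709 without the trend and 0.325 in the fit to 12 libraries. Sult1c2, a sulfotransferase gene, went from 181.6, 249.9 and 194.5 to 87.5, 60.62 and 73.14 (-1.49 ± 0.24, limma adjusted p = 0.00702). The P450 count was 2 without oil replicate 1 or 2, and the phase II count was 1 without oil replicate 1, oil replicate 2, CCl4 replicate 1 or CCl4 replicate 2. No member of the lists of 36 plasma protein genes or 30 fatty acid oxidation genes passed in either direction with limma. At an unadjusted p under 0.05, 1 plasma protein gene (2.8%) was higher and 3 (8.3%) lower. In the fatty acid oxidation list 1 gene (3.3%) was higher and 2 (6.7%) lower. Of all genes tested 11.6% were higher and 8.1% lower at that p. Hnf4a, the master regulator gene of hepatocytes, was at 17190, 18780 and 9439 after oil and 12690, 15240 and 18980 after CCl4. Cebpa, another hepatocyte regulator, was at 12530, 13340 and 6912 and at 6213, 3473 and 4883 (-1.15 ± 0.29, limma adjusted p = 0.0542), and without oil replicate 3 it passed with an adjusted p of 0.0125.

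Major urinary protein genes, secreted pheromone carriers of male liver, had the lowest list median, -1.37. Of 18 members 5 were called lower (27.8%, against 1.26% of all genes) and none higher. Mup17 went from 11750, 15260 and 27850 normalized counts to 451.2, 103.8 and 348.3 (-6.07 ± 0.50, limma adjusted p = 0.000101, and -5.43 without CCl4 replicate 2). Mup1 was at 467800, 478200 and 512600 after oil and at 291300, 6599 and 6756 after CCl4, so that CCl4 replicate 1 lay far above the other CCl4 libraries and below the oil libraries. Its adjusted p was 0.0756 with all libraries and 0.00053 without CCl4 replicate 1. These genes are near-identical copies, so the values of single members are uncertain, and the summed list is the safer reading. It took 5.90%, 6.97% and 7.17% of the oil libraries and 5.01%, 1.86% and 2.88% of the CCl4 libraries, without overlap.

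**Figure D4:**
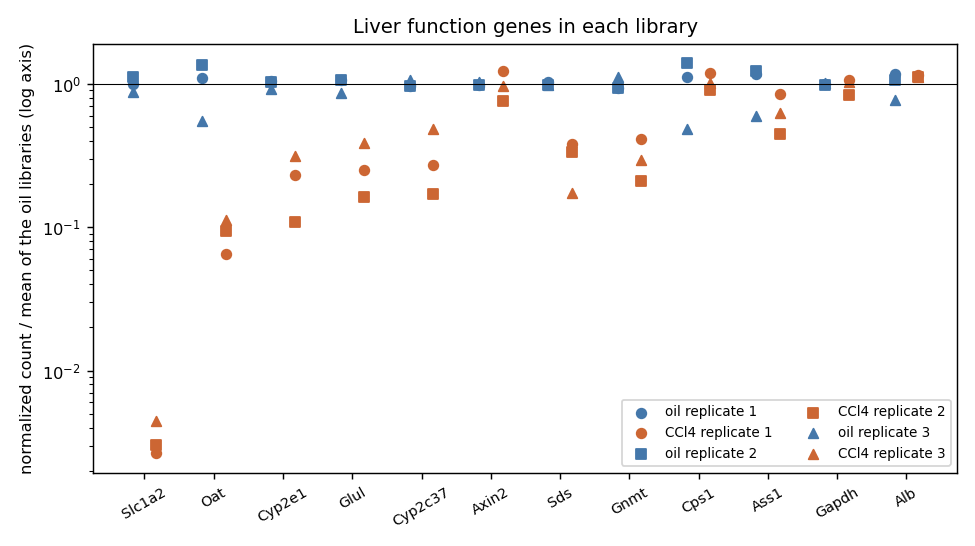
Normalized count of 12 liver genes in each library divided by the mean of the oil libraries (vertical log axis), with oil in blue, CCl4 in orange and 1 marker shape per replicate number. Slc1a2, Oat, Cyp2e1, Glul, Cyp2c37, Sds and Gnmt lie below the oil libraries in each CCl4 library, while Axin2, Cps1, Gapdh and Alb overlap.

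Markers of other liver cells were low but present. Of 18 stellate cell and fibroblast markers 7 rose (38.9%, against 3.91% of all genes) and none fell, with a median log2 fold change of 0.78. Leaving out oil replicate 1, oil replicate 2 or CCl4 replicate 2 left 4 of these calls, and leaving out CCl4 replicate 1 or 3 left 3. Col1a1, a collagen I gene, went from 4.199, 5.833 and 5.967 normalized counts to 98.2, 85.78 and 61.51 (3.69 ± 0.38, limma adjusted p = 0.000333), and Acta2, the smooth muscle actin gene of activated stellate cells, was listed at 0 in all oil libraries and at 17.5, 50.33 and 9.974 after CCl4. The list's summed level was 0.00723% to 0.00949% of the oil libraries and 0.0101% to 0.0165% of the CCl4 libraries. Endothelial markers took 0.0138% to 0.0183% and 0.0172% to 0.0275%, Kupffer cell and macrophage markers 0.00629% to 0.0113% and 0.00897% to 0.00969%, and lymphocyte markers 0.00016% to 0.000196% and 0.000154% to 0.000247%. None of 16 endothelial, 16 Kupffer cell, 9 monocyte and neutrophil or 6 lymphocyte markers passed with all libraries in limma. At an unadjusted p under 0.05 there were 2 endothelial (12.5%), 2 Kupffer cell (12.5%) and 2 monocyte and neutrophil markers (22.2%) higher, against 11.6% of all genes tested. At the same p, 2 Kupffer cell markers (12.5%) were lower, against 8.1% of all genes tested. Lymphocyte markers gave 0 calls and 0 at an unadjusted p under 0.05. The part of other cells in the rises of replication and mitosis genes was not tested.

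The Alb-R3 libraries gave the same comparison in the other genotype. The difference between the 2 responses, tested as an interaction in limma over 20244 genes and all 12 libraries, called 0 genes (0.0%), with 1516 genes at an unadjusted p under 0.05 and a smallest adjusted p of 0.247. The gene of smallest p was Npr2, a natriuretic peptide receptor, with a log2 fold change of -1.94 in Alb-Cre and -3.79 in Alb-R3. Leaving out Alb-R3 CCl4 replicate 1, in which mitochondrially encoded genes took 32.3%, gave 3 calls. Without Alb-Cre oil replicate 3, and likewise without the third Alb-R3 CCl4 library, there were 2. A p that misses the threshold does not show that the 2 responses were alike.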

How the data were processed

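RNA-seq of purified hepatocytes was analysed from the deposited table, in which each gene has, for every library, a deposited normalized count beside an FPKM. Per the submitters' processing notes the tools were kallisto 0.44.0 and edgeR (no version listed) and the build GRCm38.p6, and their roles are not given there. The deposited normalized count is a signal: its low values step as estimated reads scaled by 1 factor in each library would. The FPKM values are the authors' deposited ones and served for comparing genes per length and as an alternative.

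The model was limma 3.58.1 (R 4.3.3) with a trend of variance on mean level, fitted to log2(normalized count + 1) of the 6 libraries, which leaves 4 residual degrees of freedom. Adjusted p-values are Benjamini-Hochberg over all genes tested. Errors are limma's standard errors. The fit was tested on simulated data. Replicate libraries differed by more than counting noise.

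The 52 gene lists (44 of pathways, 8 of cell types) and the comparison were chosen with earlier results of these data known, so no list is independent support. Named genes are the 15 largest called rises and falls without overlap and with a mean of at least 5, the 10 most abundant called genes of at least 2-fold change in each direction, 2 called members of largest fold and 2 most abundant members per list, fixed anchors such as Ccnd1 and Glul, and the 10 smallest interaction p-values. Not each is printed, and 1 item is not reported here. Gene positions are from GENCODE M21 and promoters from RefSeq, both on GRCm38.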

Additional observations from a re-analysis of the deposited data

Results flagged for a closer look

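Ptprc, the gene of the leukocyte antigen CD45, had fold changes of opposite sign in the 2 genotypes. It was flagged by a rule that required non-overlapping groups in both, so the lack of overlap is no further evidence. Its log2 fold change was -0.21 in Alb-Cre (not called, limma adjusted p = 0.787), with every CCl4 library below every oil library, as in 11.5% of all genes tested. In Alb-R3 it was 2.07, with every CCl4 library above. It was at 27.3, 27.22 and 31.03 normalized counts after oil and 26.25, 21.73 and 25.77 after CCl4 in Alb-Cre. In Alb-R3 it was at 15.3, 18.1 and 22.5 and at 256.9, 33.7 and 59.3. The highest of these, Alb-R3 CCl4 replicate 1, is the library in which mitochondrially encoded genes took 32.3%. The difference did not pass over all genes (limma adjusted p = 0.515).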

How the results depend on the processing

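The directions of all 116 called genes that the naming rule takes held under each alternative that tested them, and 68 of them kept their call in all of the leave-one-out fits and other settings at the 0.05 threshold (75 in each leave-one-out fit). The genes called higher were 702, and the count moved by more than 1.5 times with limma's library weights (1901), with FPKM columns (1137) and at thresholds of 0.01 (357). Leaving out 1 library gave 421 to 690. The genes called lower were 227, against 1315 with library weights, 500 in the fit to 11 libraries (without Alb-R3 CCl4 replicate 1), 115 with FPKM columns, 89 without the trend, 52 at a threshold of 0.01 and 474 at 0.1, and 87 to 250 with 1 library left out. The interaction gave 0 to 3 genes with 1 library left out. With the replicate number as a block, 569 genes were higher and 183 lower, of which 691 were also called without it, and the interaction stayed at 0. The numbers showed no pairing of oil with CCl4 libraries. For this, each library's deviations from its group mean were correlated across genes. Same-numbered libraries gave -0.068, -0.034 and -0.094, and differently numbered ones -0.037 to 0.081. The lists of replication, kinetochore, spindle and repair genes kept counts within 1.5 times under each leave-one-out fit. Depth limits the genes near 0 after oil, whose fold depends on 1 or a few reads.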

Other observations

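Some of the largest falls belonged to none of the groups described so far. Mfsd2a, the gene of a lysophospholipid transporter, went from 800, 669.9 and 562.1 normalized counts after oil to 57.36, 82.35 and 106.4 after CCl4 (log2 fold change -3.06 ± 0.26, SE, limma adjusted p = 0.000111), and Ighm, an immunoglobulin heavy chain gene of B cells, from 100.8, 121.5 and 90.7 to 7.778, 12.58 and 18.29 (-2.99 ± 0.37, limma adjusted p = 0.00123). Both kept their call with each library left out.

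Mitochondrially encoded genes gave 0 calls in limma, with 2 of 13 lower at an unadjusted p under 0.05 (15.4%, against 8.1% of all genes tested). All 13 had a negative log2 fold change. In 10 of them every CCl4 library lay below every oil library in normalized counts, as in 11.5% of all genes tested, beside the high share of these genes in oil replicate 3. As a share of the library total, which was lower in every CCl4 library, the groups overlapped. The list took 7.09%, 7.74% and 12.8% after oil and 7.98%, 6.25% and 7.06% after CCl4. Of 20 clock genes 1 was called in limma, while 11 were lower (55.0%) and 4 higher at an unadjusted p under 0.05, against 8.1% and 11.6% of all genes tested, and the list's median log2 fold change was -0.57. Bhlhe40 was the called member, from 3879, 6285 and 5457 to 2781, 1653 and 2382 (-1.20 ± 0.24, limma adjusted p = 0.0191), and it kept its call only without oil replicate 1 or CCl4 replicate 1, with adjusted p up to 0.0675 otherwise. Nr1d1, the gene of REV-ERBα, was at 6490, 2676 and 3937 after oil and 2502, 471.2 and 2727 after CCl4. Whether hour of collection differed between libraries was not tested.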
